A study of Mus musculus with 3 samples.

Results

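The genes described here are 10 genes of the NF-kappa-B system of mouse macrophages: the 5 genes of the DNA-binding subunits (Rela, Relb, Rel, Nfkb1 and Nfkb2) and 5 genes of feedback inhibitors and nuclear inhibitor-like proteins (Nfkbia, Nfkbie, Nfkbiz, Tnfaip3 and Bcl3). They were chosen by gene symbol. All 10 were found, each on 1 row, among the 46078 genes of the deposited table. All 10 had a mean level of at least 1 FPKM (fragments counted per length of exon and library total). Levels of different genes set side by side in FPKM depend on the exon length used for each gene. The RNA came from RAW 264.7 cells, a macrophage line from a tumour induced in a mouse by Abelson leukaemia virus. One group was untreated control cells. Another was cells given 0.5 mM hydroxyurea (HU), a ribonucleotide reductase inhibitor that stalls DNA replication. The third was cells that received gold nanocages together with 0.5 mM HU. The treatments lasted 12 hours, and each group was 1 library. All cells were of this 1 line, and the dose of the nanocages is not given in the sources used here. With 1 library per group no difference below has a replicate check, so the conditions were not tested. Each ratio carries an exact 95% interval that covers counting error only.

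NF-kappa-B factors are dimers of subunits that share a Rel homology domain. In resting cells the inhibitor IkB-alpha and its relatives hold many dimers in the cytoplasm. Signals from TNF, interleukin 1 and Toll-like receptors act through the IKK kinases, which mark the inhibitors for destruction and free dimers of RELA or REL with p50. A slower route through the kinase NIK leads to processing of the NFKB2 precursor and to dimers of RELB with p52. Several inhibitors are themselves targets of NF-kappa-B, so activation switches on its own brakes, and macrophages use the system to drive their inflammatory genes.

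The DNA that such dimers bind, the kappa-B site, lies before several of these genes, and the stretches below are shown because they hold such sites near the starts of the members. RefSeq start sites (GRCm38.p6) were found for 7 of the 10 genes. The 250 bases before each start were searched on both strands for the 10-base kappa-B consensus, in which matches on the 2 strands may overlap. The 7 genes have 10 start sites, and 7 of these 10 windows held a match, beside 7.25% of 32851 windows of the same length in the whole table. Nfkb2 and Tnfaip3 have more than 1 start site, and 2 windows of Nfkb2 overlap, so the windows are not independent. Counted by gene, 5 of the 7 had a match before at least 1 start, and no share by gene was computed for the whole table. Rela and Bcl3 had no match in these windows. Sequences run 5′ to 3′ on the strand of the gene, with matching bases in capitals. The Nfkbia stretch, on the minus strand at chr12:55492648-55492897, is shown whole because Nfkbia is the most abundant member. The others show a match with its nearest bases: Nfkb2 on the plus strand at chr19:46304689-46304717 and chr19:46304717-46304736, Nfkbie on the plus strand at chr17:45555585-45555612, Rel on the minus strand at chr11:23771042-23771070, and Tnfaip3 on the minus strand at chr10:19015517-19015544 and chr10:19015411-19015431.
Nfkbia: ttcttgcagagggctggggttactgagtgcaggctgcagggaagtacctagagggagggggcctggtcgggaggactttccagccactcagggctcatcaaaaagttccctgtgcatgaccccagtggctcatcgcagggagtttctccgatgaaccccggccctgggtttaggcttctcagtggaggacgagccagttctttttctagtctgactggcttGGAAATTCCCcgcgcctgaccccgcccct
Nfkb2, far match: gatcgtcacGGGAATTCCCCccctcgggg
Nfkb2, near match: gggccgaaaGGGGCTTTCCc
Nfkbie: cagcaaacaGGGGGATTCCggaggggcg
Rel: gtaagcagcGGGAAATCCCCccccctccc
Tnfaip3, far match: actcacgcgGGGACACCCCggggcggga
Tnfaip3, near match: atttccatcGGAAATCCCCct
The Nfkbia match starts 29 bases before the start, those of Nfkb2 39 and 11 bases, and those of Tnfaip3 125 and 12 bases before it. The stretches of Nfkb2 and Tnfaip3 lie within the bounds of the gene in the GENCODE annotation, which has starts farther upstream, and the others lie outside the gene. Nfkb2 has 2 further start sites in the same table, with 1 match each. For 1 of these, and for Nfkbie, the first bases after the start were not found in a GENCODE transcript of the gene. A match describes the letters only; no binding was measured. In the comparison of HU with control that follows, of the 5 genes with a match Nfkb2 was above counting error. Tnfaip3, Rel and Nfkbia were below it and Nfkbie was within it, and both genes without a match were above it. Among all genes with a mean of at least 1 FPKM, 18.7% were above and 20.1% below counting error. Relb, Nfkb1 and Nfkbiz had no window. Whether a match goes with the direction of a difference was not tested.

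The libraries held 14990564 counted reads in control, 20057329 in HU and 18644333 with HU plus nanocages. All 7 macrophage markers listed for the check of the cell type, such as Adgre1, Csf1r and Spi1, reached a mean of 1 FPKM, with summed levels of 3040, 2917 and 2788 FPKM in control, HU and HU plus nanocages. Of 6 lymphocyte markers only Ighm reached that mean, the list summing to 138.9, 95.1 and 97.1 FPKM in the same order, with Cd3e, Cd3g and Ms4a1 among those without a read; its part in the results was not tested. None of 4 fibroblast, 6 granulocyte and mast cell or 6 dendritic cell markers did. As a check of the drug response, Cdkn1a, a p53 target that encodes p21, was 6.54-fold higher in HU than in control (6.25 to 6.84). In bulk RNA, fewer cells of a kind and less RNA per cell cannot be told apart.

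In HU against control, 4 of the 10 genes were above counting error, namely Nfkb2, Relb, Rela and Bcl3, and 5 were below it, namely Tnfaip3, Nfkbiz, Rel, Nfkbia and Nfkb1. Nfkbie lay within it. Among all 10849 genes with a mean of at least 1 FPKM, 18.7% were above and 20.1% below counting error. Among the 7972 genes whose reads lay in the range spanned by the 10 members (620 to 15628 reads over the 3 libraries), these shares were 20.4% and 22.4%. All differences were small. No member reached 1.5-fold in either direction, beside 4.53% of all genes at least 1.5-fold higher and 3.12% at least 1.5-fold lower. The median size of the difference, in whichever direction, was 1.14-fold for the members and 1.08-fold for the 7972 genes of like read number. The median log2 ratio of FPKM (with 1 FPKM added to each value) was -0.10 over the members and -0.0076 over all genes. It was 0.22 over the 5 subunit genes and -0.13 over the 5 genes of inhibitors and nuclear inhibitor-like proteins.

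**Figure D1:**
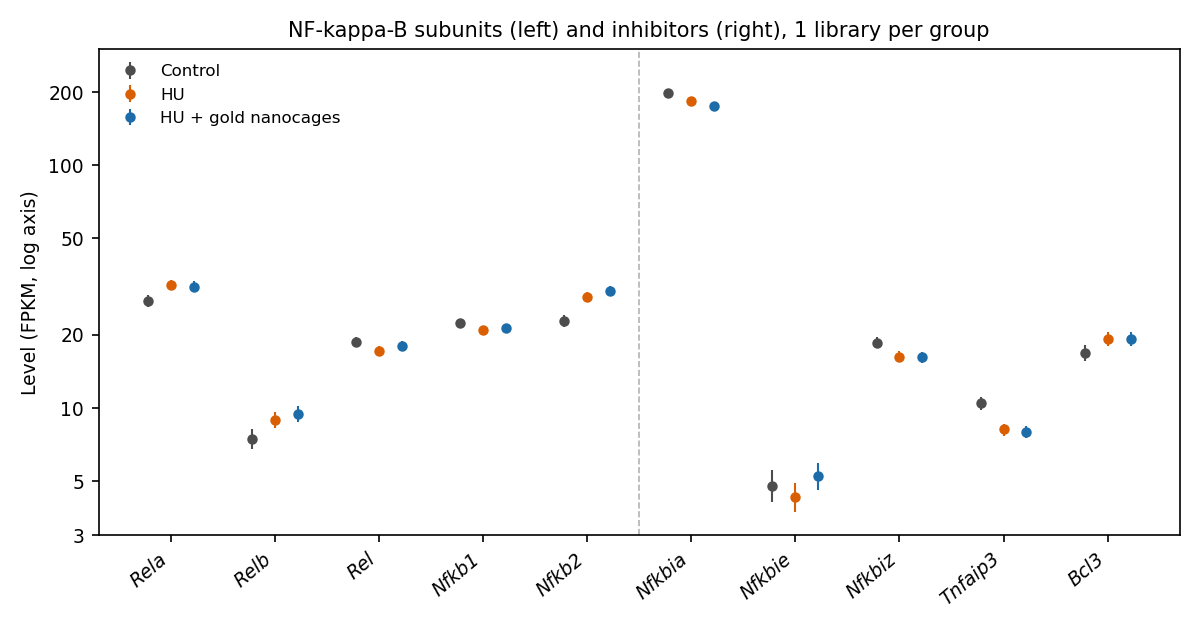
Level of each gene in FPKM (log axis) in the 3 libraries; each point is 1 library and each bar the exact 95% counting interval. Nfkbia sits far above the others at 175.8 to 197.5 FPKM, and the Nfkb2 and Relb points of both HU libraries lie above control while those of Tnfaip3 lie below.

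Among the subunits, Nfkb2 differed most between HU and control. Its product, the p100 precursor, is both an inhibitor of RELB and the source of p52. Nfkb2 had 1126 reads in control, 1891 in HU and 1862 with HU plus nanocages, or 22.8, 28.7 and 30.4 FPKM. Both HU libraries thus lay above control, 1.26-fold (1.17 to 1.35) in HU and 1.33-fold (1.23 to 1.43) in HU plus nanocages. Nfkb2 lies on the plus strand of chromosome 19 at 46304320 to 46312385 of mm10. In the GENCODE annotation it shares 299 of its 4584 exonic bases with Psd, a gene on the other strand. The deposited FPKM rests on 3289 exonic bases for Nfkb2, so how much of the counted exons is shared is not known. Psd had 120, 369 and 398 reads in the same order and was 2.30-fold higher in HU (1.87 to 2.85). Whether the counting used strand is not given in the sources used here, so the part of Psd reads in the Nfkb2 value was not tested.

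Relb encodes the partner of p52 in the slower route. It had 433 reads in control, 695 in HU and 683 with HU plus nanocages, or 7.43, 8.92 and 9.43 FPKM. Its ratio to control was 1.20 in HU (1.06 to 1.36) and 1.27 in HU plus nanocages (1.12 to 1.43). Rela, which encodes the p65 subunit that carries a transactivation domain, had 1122, 1756 and 1602 reads, or 27.6, 32.2 and 31.6 FPKM. It was 1.17-fold higher in HU than in control (1.08 to 1.26) and 1.15-fold higher in HU plus nanocages (1.06 to 1.24). For both genes control was the lowest of the 3 libraries. Relb lies on chromosome 7 at 19606217 to 19629438 and Rela on chromosome 19 at 5637483 to 5648130, and no annotated gene overlaps either.

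Rel and Nfkb1 stood on the other side. Rel, which encodes the c-Rel subunit, had 2095, 2582 and 2518 reads, or 18.7, 17.2 and 18.1 FPKM. It was 1.09-fold lower in HU than in control (1.02 to 1.15), while in HU plus nanocages its ratio to control of 0.966 (0.912 to 1.02) lay within counting error. Nfkb1, the gene of the p105 precursor and of p50, had 4036, 5060 and 4803 reads, or 22.3, 20.9 and 21.4 FPKM. It was 1.07-fold lower in HU (1.02 to 1.11). Its ratio to control in HU plus nanocages was 0.957 (0.917 to 0.998). Under upper-quartile scaling both lay within counting error in HU, and Nfkb1 stood at 1.01 times control in HU plus nanocages. Rel lies on chromosome 11 at 23736847 to 23770970 and Nfkb1 on chromosome 3 at 135584655 to 135691547.

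The subunits were therefore shifted against each other, which can be read without any scaling between libraries. This reading does not remove a shift tied to the G and C content of transcripts, 59.4% for Nfkb2 and 44.9% for Nfkb1. For Relb and Rel it was 56.8% and 42.5%. The part of this content in the pairs was not tested. These pairs, and those of inhibitor genes below, were chosen after their values were seen. They restate the ratios of the single genes, and their intervals do not allow for the choice. Per length, Nfkb2 stood at 1.02 times the level of Nfkb1 in control, 1.37 times in HU and 1.42 times in HU plus nanocages. The ratio of these ratios was 1.34 in HU against control (1.23 to 1.46). The exon length used cancels in a ratio of ratios but not in the levels set side by side. Relb stood at 0.397, 0.517 and 0.521 times the level of Rel in the same order, a ratio of ratios of 1.30 in HU (1.14 to 1.49). For Relb against Rela the ratio of ratios was 1.03 (0.888 to 1.19), within counting error. Of the summed FPKM of the 5 subunits, Nfkb2 made up 23.1% in control and 26.6% in HU, and Rel 18.9% and 16.0%.

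**Figure D2:**
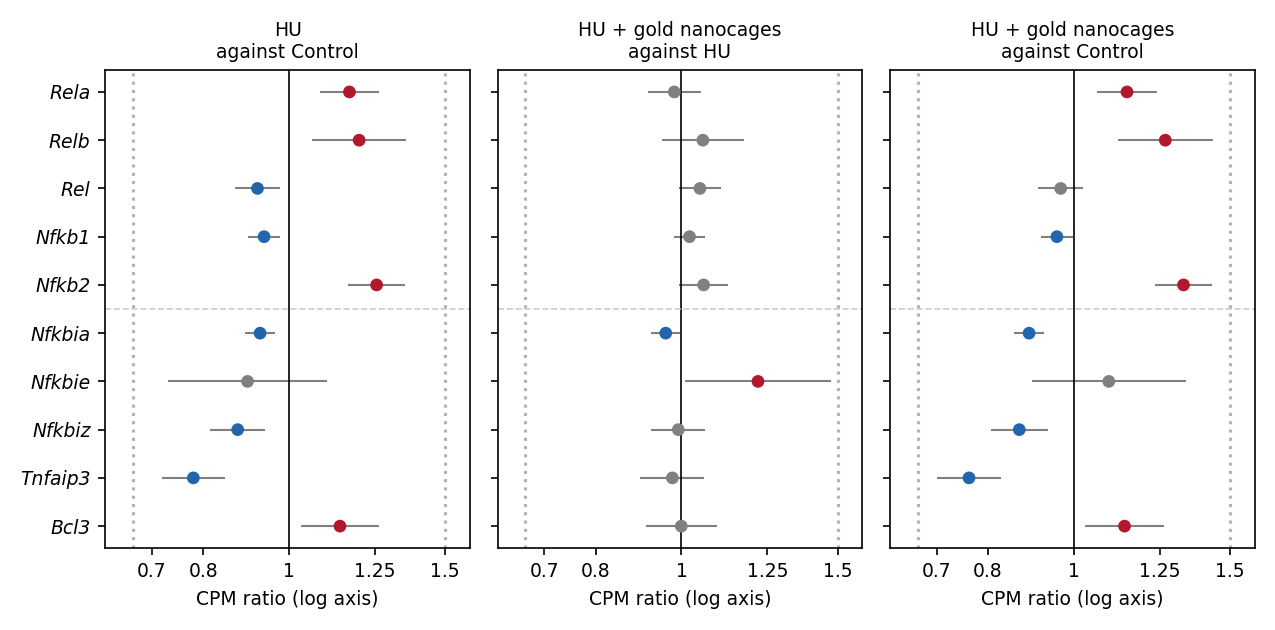
CPM ratio (log axis) of each member in the 3 comparisons, with exact 95% counting intervals; red and blue points lie above and below counting error, grey points within it, and dotted lines mark 1.5-fold. No interval reaches a dotted line, and in HU plus nanocages against HU only Nfkbia and Nfkbie are coloured.

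Among the inhibitors, Tnfaip3 differed most. It encodes A20, an enzyme that edits ubiquitin chains on signalling proteins upstream of IKK. Tnfaip3 had 1133 reads in control, 1182 in HU and 1073 with HU plus nanocages, or 10.5, 8.16 and 7.96 FPKM. Both HU libraries lay below control, 1.28-fold lower in HU (1.18 to 1.39) and 1.31-fold lower in HU plus nanocages (1.21 to 1.43). It lies on chromosome 10 at 19000910 to 19015657.

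Nfkbia encodes IkB-alpha, the main cytoplasmic inhibitor, and was the most abundant of the 10 genes. It had 4668, 5792 and 5168 reads, or 197.5, 183.1 and 175.8 FPKM. Of the summed FPKM of the 5 genes of inhibitors and nuclear inhibitor-like proteins it made up 79.6%, 79.2% and 78.3%. It was 1.08-fold lower in HU than in control (1.04 to 1.12) and 1.12-fold lower in HU plus nanocages (1.08 to 1.17). With upper-quartile scaling its ratio in HU was 0.980 (0.943 to 1.02), within counting error. Nfkbia lies on chromosome 12 at 55489410 to 55492647. Per length Nfkbia stood at 7.17 times the level of Rela in control and at 5.68 times in HU, a ratio of ratios of 0.793 (0.728 to 0.863). For Tnfaip3 against Rela the ratio of ratios was 0.667 (0.596 to 0.746).

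Nfkbie encodes IkB-epsilon, a further cytoplasmic inhibitor, and rested on the fewest reads. It had 174, 209 and 237 reads, or 4.79, 4.30 and 5.25 FPKM. In HU its ratio to control was 0.898 (0.731 to 1.10), and in HU plus nanocages it was 1.10 (0.897 to 1.34). A difference from control was not detectable at this depth. Nfkbie lies on chromosome 17 at 45555703 to 45563169.

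Nfkbiz and Bcl3 encode nuclear proteins of the IkB family that work with p50 and p52 on DNA. They stood on opposite sides of control. Nfkbiz had 1400, 1639 and 1511 reads, or 18.6, 16.3 and 16.2 FPKM, and was 1.14-fold lower in HU (1.06 to 1.23). Bcl3 had 628, 959 and 891 reads, or 16.9, 19.2 and 19.2 FPKM, and was 1.14-fold higher in HU (1.03 to 1.26). Per length, Bcl3 stood at 0.906 times the level of Nfkbiz in control and 1.18 times in HU, a ratio of ratios of 1.30 (1.15 to 1.48). This pair, too, was chosen after its values were seen. Of the antisense genes annotated over Bcl3, Gm16174 had 4, 11 and 11 reads and Gm16175 had 3, 2 and 3, few beside the reads of Bcl3. Nfkbiz lies on chromosome 16 at 55811375 to 55838899 and Bcl3 on chromosome 7 at 19808462 to 19822770.

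The order of levels depends on the exonic length used for each gene, from 1577 bases for Nfkbia to 12061 for Nfkb1. How much of that length the transcripts of these cells hold was not tested. Before division by length, Nfkb1 had 4036 reads in control and Rela 1122. In the order of levels in control, Nfkbia at 197.5 FPKM was followed by Rela at 27.6. Nfkb2 and Nfkb1 came next with overlapping intervals (21.5 to 24.2 and 21.6 to 23.0 FPKM). Rel, Nfkbiz and Bcl3 formed a further group whose neighbours overlapped (17.9 to 19.5, 17.6 to 19.6 and 15.6 to 18.2 FPKM). Tnfaip3 at 10.5, Relb at 7.43 and Nfkbie at 4.79 FPKM closed the order, each apart from its neighbours by counting error. In HU plus nanocages Relb (8.74 to 10.2 FPKM) stood above Tnfaip3 (7.50 to 8.46), the reverse of control (6.75 to 8.17 and 9.86 to 11.1). In HU alone the intervals of this pair overlapped (8.27 to 9.61 and 7.70 to 8.63).

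The members above control in HU were also those with the highest GC content. The longest annotated transcripts of Bcl3, Nfkb2, Rela and Relb held 62.6%, 59.4%, 59.4% and 56.8% G and C, and those of the other 6 members between 42.5% and 55.4%. Over all genes cut into 10 equal groups by GC content, the median log2 CPM ratio of HU to control ran from -0.043 in the lowest group to 0.025 in the highest. Set against the median of their own GC group, Nfkb2 remained 1.23-fold higher (1.15 to 1.33), Relb 1.19-fold (1.05 to 1.35), Rela 1.15-fold (1.07 to 1.24) and Bcl3 1.12-fold (1.01 to 1.24). Tnfaip3 remained 1.27-fold lower (1.17 to 1.38). Rel, at 0.944 (0.891 to 1.001), came to lie within counting error.

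**Figure D3:**
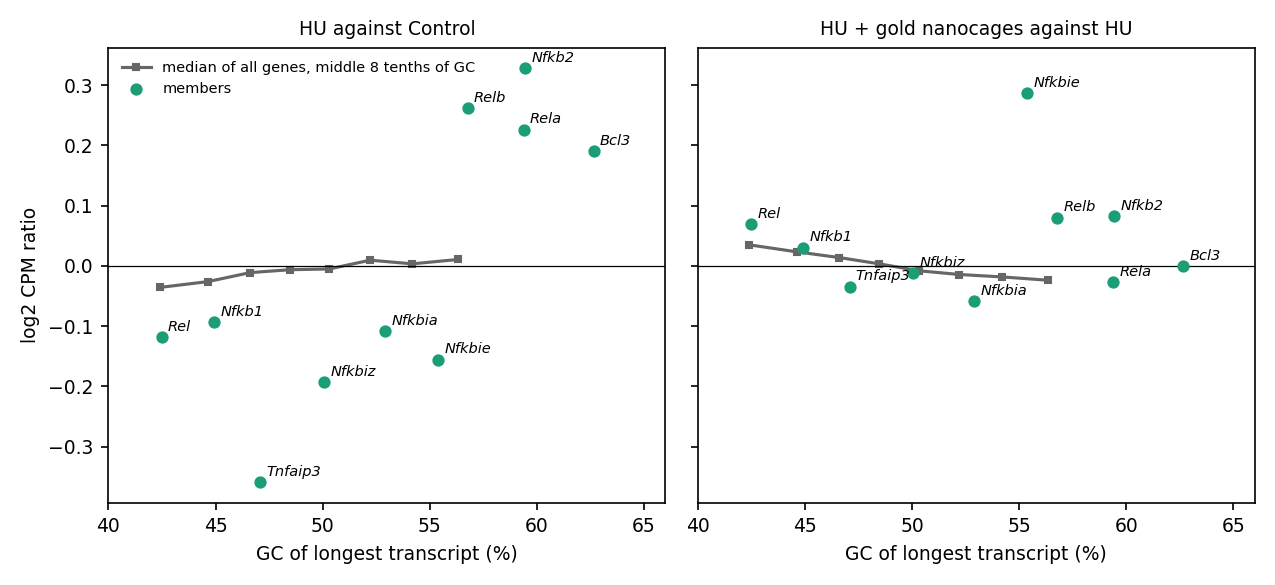
log2 CPM ratio of each member (green) against the GC content of its longest transcript in percent; the grey line joins the medians of all genes in the middle 8 of 10 GC groups. In HU against control the 4 members of highest GC content lie above 0 and the rest below. The grey line stays near 0 over the groups drawn. It does not reach the highest group, which holds Bcl3, Nfkb2 and Rela and had a median of 0.025.

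HU plus nanocages was then set against HU, and no group received nanocages alone. With 1 library in each group, a difference between these libraries cannot be assigned to the nanocages. For 8 of the 10 genes the libraries did not differ beyond counting error. Nfkbie was above it at 1.22-fold (1.01 to 1.48), on 237 against 209 reads, beside 8.35% of all genes. Nfkbia was below it at 1.04-fold lower (1.003 to 1.08), beside 7.78% of all genes. Among genes in the read range of the members these shares were 8.77% and 7.71%. Set against genes of like GC content, Nfkbia was within counting error at 0.969 (0.934 to 1.01) and Nfkb2 was above it at 1.08 (1.01 to 1.15). No member reached 1.5-fold, beside 1.36% of genes higher and 1.32% lower. All 5 subunit genes lay within counting error, with ratios from 0.981 for Rela to 1.06 for Nfkb2. The median size of the difference was 1.03-fold for the members and 1.04-fold for genes of like read number.

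HU plus nanocages against control shares its control library with the HU comparison, so its values are given beside those of HU and not as a second observation. Relative to control, 4 members were above counting error, beside 19.6% of all genes, and 4 were below it, beside 20.1%. Among genes in the read range of the members these shares were 21.3% and 22.3%. No member reached 1.5-fold, beside 5.28% of all genes higher and 3.24% lower. The former were Nfkb2, Relb, Rela and Bcl3, and the latter Tnfaip3, Nfkbiz, Nfkbia and Nfkb1. Nfkbiz was 1.15-fold lower than control (1.07 to 1.24) and Bcl3 1.14-fold higher (1.03 to 1.27).

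The wider pathway was read from lists of genes by role, first in HU against control. The counts of the lists are to be read beside 18.7% of all genes above and 20.1% below counting error. For 1.5-fold the shares of all genes were 4.53% higher and 3.12% lower. Tnf, the ligand that is both a trigger and a target of the pathway, had 11405 reads in control and 9346 in HU, at 464.2 and 284.3 FPKM, and was 1.63-fold lower (1.59 to 1.68). Ltb, a ligand of the slower route, was 1.31-fold lower (1.24 to 1.40). Il1b, the gene of interleukin 1 beta, went the other way on few reads, 40 in control and 129 in HU, and was 2.41-fold higher (1.68 to 3.53). Tnfsf13b, on 22 and 47 reads, was within counting error at 1.60 (0.943 to 2.78). Of these 4 ligands that reached a mean of 1 FPKM, of 7 listed, 1 was above and 2 below counting error, and by ratio alone 2 were at least 1.5-fold higher and 1 at least 1.5-fold lower. Of 9 measured receptors 2 were above and none below counting error, and 1 was at least 1.5-fold higher. Tnfrsf1b, on few reads, 41 in control and 92 in HU, was 1.68-fold higher (1.15 to 2.49). Tlr2, a sensor of bacterial lipoproteins, was 1.16-fold higher (1.11 to 1.21). Tnfrsf1a (1.08, 0.9996 to 1.17) and Tlr9 (0.909, 0.818 to 1.01) were within counting error.

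Of 11 genes of IKK subunits, upstream kinases and their partners, 2 were above and 2 below counting error, and none reached 1.5-fold. Map3k7, which encodes the kinase TAK1 that activates IKK, was 1.27-fold higher in HU (1.19 to 1.35), and Chuk, which encodes IKK-alpha, was 1.15-fold higher (1.07 to 1.24). Tab1, a partner of TAK1, was 1.18-fold lower (1.06 to 1.31). The kinase gene of the slower route, Map3k14 (NIK), was within counting error at 1.03 (0.914 to 1.16).

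Of 19 measured ubiquitin ligases, TRAFs and adaptors, 4 were above and 5 below counting error. Those above were Myd88 (1.18, 1.11 to 1.26), Ripk1 (1.18, 1.09 to 1.27), Rbck1 (1.15, 1.08 to 1.21) and Traf6 (1.11, 1.02 to 1.22). Rnf31, the catalytic subunit of the linear ubiquitin ligase, was 1.44-fold lower in HU (1.27 to 1.63). Traf1 was 1.34-fold lower (1.253 to 1.44) and Birc3, which encodes the ligase cIAP2, was 1.30-fold lower (1.21 to 1.39). Among 18 other inhibitors 3 were above and 7 below. Tnip3, which encodes a partner of A20, was 1.54-fold higher (1.44 to 1.65), at 21.5 FPKM in control and 33.2 in HU, against the lower value of Tnfaip3 itself. N4bp1 was 1.2498-fold higher (1.17 to 1.34) and Tollip 1.17-fold lower (1.09 to 1.252).

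Other textbook targets of NF-kappa-B went both ways. Of 25 measured, 11 (44%) were above and 9 (36%) below counting error, beside 18.7% and 20.1% of all genes. By ratio, 6 were at least 1.5-fold higher and 1 at least 1.5-fold lower, beside 4.53% and 3.12% of all genes. Of the 6 higher genes, the fewest reads in control and HU were those of Ccl2 (24 and 56), Src (46 and 99) and Irf1 (115 and 235). The median log2 ratio was 0.02. Ptgs2, the inducible cyclooxygenase, was 3.33-fold higher (3.09 to 3.60) and Icam1, an adhesion molecule, 1.61-fold higher (1.55 to 1.68). The chemokine gene Ccl4 was 1.62-fold lower (1.55 to 1.70). The listed genes whose pair of log2 ratios (HU to control and HU plus nanocages to HU) lay nearest to that of Tnfaip3 were Birc3, Ltb and Tab1, at distances of 0.076, 0.076 and 0.10 among 73 genes. With 3 libraries this likeness rests on 2 ratios that share the HU library.

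**Figure D4:**
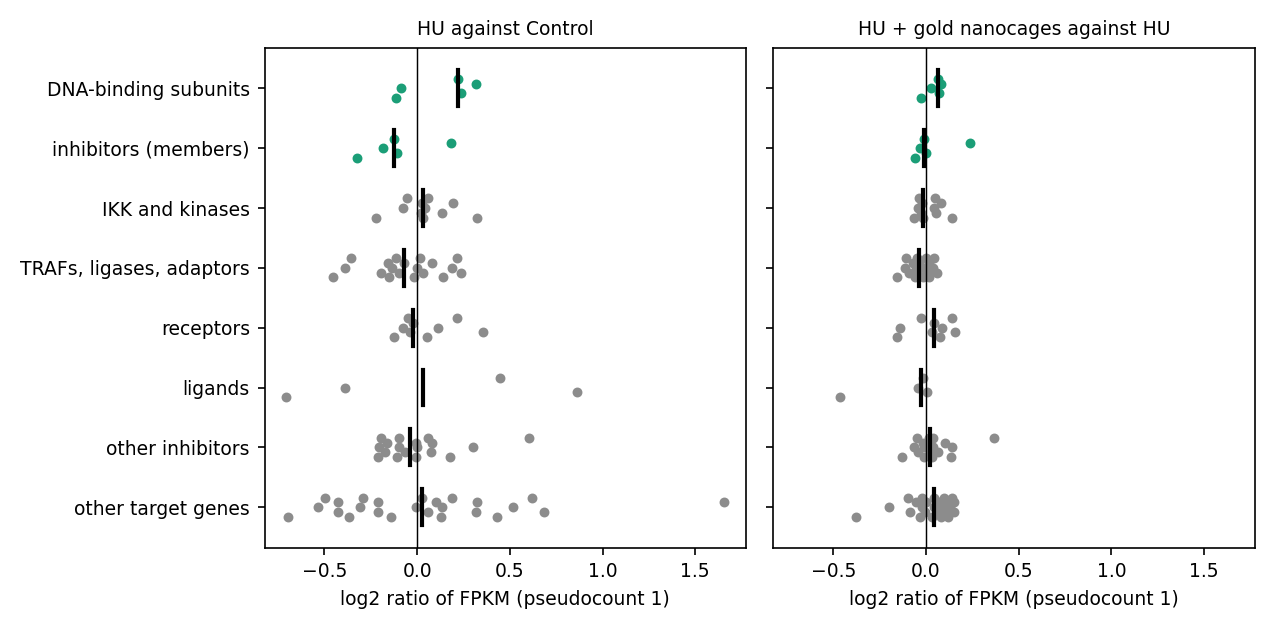
log2 ratio of FPKM with 1 FPKM added, for each gene with a mean of at least 1 FPKM in the lists by role; members are green, other genes grey, and black bars are list medians. In HU against control the other target genes spread to both sides of 0 around a median of 0.02, and in HU plus nanocages against HU most genes lie close to 0.

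With nanocages added to HU, the counts of the lists are again to be read beside 8.35% of all genes above and 7.78% below counting error. None of the 11 genes of IKK subunits, upstream kinases and their partners left counting error. Of the 19 ligases, TRAFs and adaptors 2 did, both lower. Map3k14 stood at 1.07 (0.956 to 1.19) and Ikbkb, the gene of IKK-beta, at 0.951 (0.896 to 1.01). Traf1 was 1.09-fold lower (1.01 to 1.17) and Card9, an adaptor of fungal sensing, 1.08-fold lower (1.01 to 1.15). Otulin, the enzyme that cuts linear ubiquitin chains, was 1.30-fold higher (1.20 to 1.40), on 1575 against 1307 reads, and was 1 of 3 other inhibitors above counting error. Tnip2, a further partner of A20, was within it at 1.11 (0.995 to 1.24). Of the 9 measured receptors 1 was above and 2 below counting error. Tnfrsf11a, which encodes the receptor RANK, was 1.11-fold lower (1.04 to 1.17) and Tlr4 1.14-fold lower (1.01 to 1.30), while Tlr9 was 1.11-fold higher (1.01 to 1.23). Of the 25 target genes 7 were above and 4 below. Those above were Tnfaip2 (1.12, 1.04 to 1.21), Cd44 (1.09, 1.04 to 1.13), Nlrp3, Ptgs2, Marcksl1, Icam1 and Ccl3, the last 5 at ratios from 1.03 to 1.06. Among those below, Ier3 was 1.30-fold lower (1.20 to 1.42) and Nos2, the inducible nitric oxide synthase, was 1.15-fold lower (1.10 to 1.21). Of the 4 measured ligands 1 was below counting error: Il1b had 77 reads with nanocages against 129 in HU and was 1.56-fold lower (1.17 to 2.09). It was the only gene of the lists with a mean of at least 1 FPKM to reach 1.5-fold in this comparison, beside 1.32% of all genes. Tnf (0.990, 0.961 to 1.02), Ltb (1.004, 0.945 to 1.07) and Tnfsf13b (0.961, 0.619 to 1.49) were within counting error.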

How the data were processed

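Whole-number read counts per gene, not normalized, and FPKM values were deposited in 1 table for 3 libraries, with 1 library per group. Per the file headers the deposited FPKM values use an exonic gene size in bases, an other kind of value; each equals the count divided by that size and by the summed count, within rounding, for 100% of genes. The submitters' processing notes name HISAT2 2.0.1, HTSeq 0.6.1, SAMtools 0.1.18, cutadapt, bcl2fastq 2.17.1.14, DESeq and the build mm10; no settings are given there.

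Ratios of CPM (counts scaled to the summed count of the library) carry exact Clopper-Pearson 95% intervals, and ratios of ratios carry exact conditional intervals (SciPy 1.17.1). Reads carry no molecular identifiers, so intervals cover counting error only. One read stood for 0.0667, 0.0499 and 0.0536 CPM in control, HU and HU plus nanocages. Interval code was tested on simulated data. Coordinates and GC content came from GENCODE M21, promoters from RefSeq GRCm38.p6; GC content was known for 99.7% of genes with a mean of at least 1 FPKM. Alternatives were TMM factors (edgeR 4.0.16), median-of-ratios and upper-quartile scaling, pseudocounts, filters and folds; the GC comparison and the restriction by read number were added after seeing the data. Named genes were the members, up to 3 genes per list with the largest log2 ratio in either direction in HU against control and up to 2 in HU plus nanocages against HU, at a mean of at least 5 FPKM, Cdkn1a, and the 3 genes nearest to the member that differed most. Mdm2, also in the rule, is not shown. Psd, Gm16174, Gm16175, Tnfsf13b, Il1b, Tnfrsf1b, Tlr4, Tnfaip2, Cd44, Nlrp3, Marcksl1 and Ccl3 are named outside the rule, chosen after their values were seen. The same holds for Ccl2, Src, Irf1, Myd88, Ripk1, Rbck1 and Traf6. Cell type markers came from a list of their own. Members and lists were chosen with earlier results of these data known.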

Additional observations from a re-analysis of the deposited data

How the results depend on the processing

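No member changed its call under TMM factors or median-of-ratios scaling in any of the 3 comparisons. Upper-quartile scaling raised ratios to control by 0.079 (HU) and 0.073 (HU plus nanocages) on the log2 scale. In HU against control it left 2 members, Tnfaip3 and Nfkbiz, below counting error, because Rel, Nfkb1 and Nfkbia came to lie within it. Nfkb1 then stood at 1.01 in HU plus nanocages against control, on the other side of 1. Relative to genes of like GC content, 2 members were above and 0 below counting error in HU plus nanocages against HU. At a lower bound of 5 to 4 for the ratio, 1 member was higher and 1 lower in HU, and 2 were higher and 1 lower in HU plus nanocages, each against control; at a fold of 2 none was. With members of at least 5 FPKM, which leaves out Nfkbie, the median log2 ratio was -0.000713 in HU plus nanocages against HU and -0.047 in HU plus nanocages against control, beside 0.014 and 0.032 over all members. No library could be left out and no paired analysis was possible because each group was 1 library.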
